A study of Caenorhabditis elegans with 42 samples.

Results

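The Hedgehog-related and patched-related genes of Caenorhabditis elegans were followed across embryos, L4 larvae and RNA bound by the editing regulator ADR-1. Members were chosen by gene name: every gene called wrt, grd, grl, ptr or ptc with a number, and qua-1, hog-1 and che-14. The rule gave 88 of the 30304 genes in the tables: 10 wrt (warthog), 17 grd (groundhog), 32 grl (ground-like), 23 ptr (patched-related) and 3 ptc (patched) genes and the 3 genes named singly. The name rule uses no expression value, but the members were chosen with earlier results of these data known. daf-6, a patched-related gene that shapes the channel of sensory glia, carries another kind of name and was counted among related genes outside the rule.

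In flies and vertebrates, Hedgehog is a secreted protein that cuts itself through its C-terminal Hog domain and binds the membrane protein Patched. Dispatched, a relative of Patched, releases it from the cell that makes it. Nematodes lack a true Hedgehog and the signal transducer Smoothened, but have families of secreted proteins with nematode-specific N-terminal domains. WRT, GRD, QUA-1 and HOG-1 proteins include forms with a Hog domain, and GRL proteins carry the Ground-like domain without it. On the membrane side stand the PTC and PTR proteins, which have a sterol-sensing domain, and CHE-14, a relative of Dispatched needed for secretion from the apical side of epidermal cells. Many of these genes are active in the epidermis and in glia, are needed for moulting, growth and the cuticle, and change in level with each larval moult.

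The study set animals with altered A-to-I editing of RNA beside animals with none. ADR-2 is the deaminase, and ADR-1 binds double-stranded RNA and regulates where ADR-2 edits. RNA came from whole worms kept at 20 °C, as embryos freed with hypochlorite or as L4 larvae, the last larval stage, of 4 mutant strains and the wildtype N2. The mutants are BB19 with adr-1 allele tm668, BB2 with adr-1 allele gv6, RB886 with adr-2 allele ok735 and BB3 with adr-2 allele gv42. Embryos gave 4 N2, 3 BB19, 2 BB2, 3 RB886 and 3 BB3 libraries by the labels, and L4 larvae 3 of each strain. From young adults, RNA was pulled down through a FLAG tag. HH76 is adr-1(tm668) and HH134 is adr-1(tm668) with adr-2(ok735), and both carry the extrachromosomal array blmEx1 with FLAG-tagged genomic adr-1 and a rab3-driven GFP marker. BB21, the negative control, has the mutations tm668 and ok735 and no array. Each of these 3 strains gave 2 pulled-down and 2 input libraries.

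A level below is the mean normalised count that the authors give for a strain, not divided by gene length, with the mutant means of each table put on 1 N2 scale per stage. The means of a strain summed to between 14180000 and 17400000 counts. With group means alone, no level has an SD and no overlap of groups could be seen. The p-values of the authors' deposited tables track counting error and say little of the spread between libraries, so calls of at least 1.5-fold with a larger mean of at least 10 are given first. Calls were also recomputed from the means with an added spread of 20% between libraries of a strain. The targeted genes were lower in their own mutants: adr-1 had log2 fold changes of −2.05 in BB19 and −2.55 in BB2 embryos and −1.69 in BB19 at L4, and adr-2 of −3.99 and −4.11 in RB886 and BB3 embryos and −3.61 and −3.51 at L4. At L4, more adr-1 RNA was left in the libraries labelled BB2, at a log2 fold change of −0.90, where adr-2, which is not the gene labelled as mutated, also fell (−0.65), and every L4 direction given for BB2 is that of the libraries so labelled. In BB2 embryos the spacing of the lowest means fits 3 libraries and the labels give 2. In RNA of whole animals, fewer cells of a type and less RNA per cell cannot be told apart.

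In wildtype animals most members were present at both stages, and more of them were higher at L4 than in embryos. The N2 level reached 10 normalised counts for 64 of the 88 members in embryos and for 66 at L4. It stayed under 10 at both stages for 18 members, 13 of them grl, 4 grd and 1 wrt. grd-17 and grl-29 were listed at 0 in N2 at L4. Among the 70 members whose larger N2 level reached 10, 28 were at least 2-fold higher at L4 (40%, against 28.0% of all genes so chosen) and 12 at least 2-fold higher in embryos (17.1%, against 22.2%). The median ratio of L4 to embryo level was 1.40 for the members and 0.911 for all genes. By class it was 3.26 for grd, 1.37 for wrt, 1.36 for ptr and 1.29 for grl genes, so the groundhog genes leaned most to L4. The stages were normalised in separate tables, so these ratios have no test.

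Among the secreted proteins, the wrt genes with most reads in N2 embryos were wrt-10 (1102), wrt-1 (1030) and wrt-2 (929), followed by wrt-6 (524) and wrt-9 (372). At L4 the same 3 leading genes were lower, at 332, 534 and 327.5, and the order was led by wrt-6 (1422) and wrt-4 (1418), then wrt-8 (655), wrt-1 and wrt-9 (510.5). wrt-4 was 5.46 times higher at L4 than in embryos, and wrt-10 3.32 times higher in embryos. grd-1 led the groundhog genes at both stages (475.0 and 1550), with grd-16 (201), grd-5 (196), grd-2 (161.5) and grd-11 (123) next in embryos. At L4 the genes after grd-1 were grd-2 (783), grd-5 (656.5), grd-14 (502) and grd-6 (482). Thus grd-14 stood 12.5 times, grd-9 11.2 times (0.895 and 10.03), grd-6 6.68 times, grd-3 5.90 times and grd-2 4.85 times higher at L4, and grd-16 went the other way, 7.54 times higher in embryos. grl-7 (1585) and grl-16 (1078) led the ground-like genes in embryos, before grl-10 (432), grl-5 (334) and grl-15 (214.5). At L4 grl-16 led with 4595, then grl-7 (2435), grl-5 (813), grl-10 (329) and grl-15 (276.5). The widest stage ratios of all members were in this class: grl-27 was 41.0 times higher at L4 (1.59 in embryos, 65.3 at L4) and grl-11 42.1 times higher in embryos (25.6 and 0.609). grl-22 (9.64 times) and grl-21 (9.39 times) were also higher at L4, and grl-25 (12.8 times), grl-6 (6.24 times) and grl-1 (4.53 times) in embryos. qua-1, which is needed for moulting, stood at 965 in embryos and 2062 at L4, and hog-1 at 115 and 239.

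On the membrane side, ptc-1, a patched protein needed for cell division in the germline, had more reads than any other member at both stages, 6505 in embryos and 5558 at L4. ptc-3, an essential patched gene of growth and moulting, stood at 2318 and 2745, ptc-2 at 478 and 388, and che-14 at 202 and 187. The levels of these 4 genes at the stages lay within 1.5-fold of each other, and those of several ptr genes did not. In embryos the ptr genes with most reads were ptr-4 (1645), ptr-2 (1248), ptr-18 (1215), ptr-21 (1014) and ptr-23 (974.5). At L4 they were ptr-18 (1525), ptr-4 (1252), ptr-2 (1135), ptr-23 (1128) and ptr-1 (1078). ptr-8 (9.78 in embryos, 319.5 at L4) and ptr-13 (5.11 and 159.5) were 32.7 and 31.2 times higher at L4. ptr-9 (57.5 and 3.51) and ptr-10 (602 and 117) were 16.4 and 5.13 times higher in embryos.

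**Figure D1:**
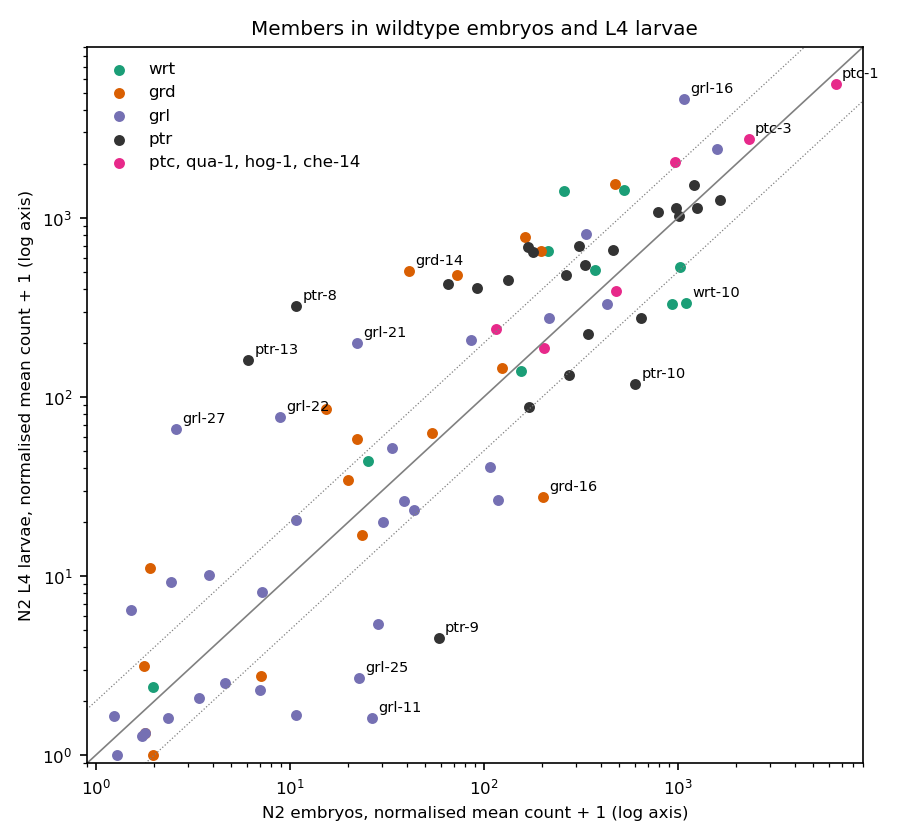
Level of each member in wildtype N2 embryos (x axis) and N2 L4 larvae (y axis), as the authors' normalised mean count plus 1 on log axes; each point is a gene coloured by class, the solid line marks equal levels and the dotted lines 2-fold differences. The patched genes lie near the solid line, ptr-8, ptr-13 and grl-27 far above it, and grl-11, grl-25, ptr-9 and ptr-10 below it.

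In mutant embryos, every member called at least 1.5-fold with a larger mean of at least 10 was higher than in N2. At this rule 17 of 88 members were higher in BB19, 21 in BB2, 8 in RB886 and 13 in BB3, where 5.55%, 10%, 1.45% and 2.62% of all genes tested were higher. No member was lower by this rule in any of these strains, against 1.48%, 0.780%, 0.385% and 0.357% of all genes. All genes were thus also called higher more often than lower, and the lack of lower members lies near the background. The limit of 10 left out grl-20, called lower in BB2 at a log2 fold change of −1.56 and an N2 level of 9.77. With an added spread of 20% between libraries, 12 of 17, 13 of 21, 1 of 8 and 7 of 13 of these calls passed; by that test 2.21%, 4.25%, 0.126% and 0.431% of all genes were higher and 0.211%, 0.125%, 0.0629% and 0.0663% lower. The comparisons share the N2 libraries, so their calls are not independent.

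At an adjusted p under 0.05 alone, 46 members were higher and 0 lower in BB19 embryos (13.2% and 16.8% of all genes tested) and 47 higher and 6 lower in BB2 (18.7% and 16.7%). RB886 had 21 higher and 18 lower (9.27% and 8.93%), and BB3 28 higher and 4 lower (10.4% and 5.83%). Counts by class in embryos below use this rule, and these shares of all genes are their background. Genes with few reads are seldom called; among genes with a larger mean of at least 10 the background in BB19 was 21.3% higher and 28.5% lower, beside 45 and 0 of 67 members. In BB2 it was 29.4% and 28.0%, beside 46 and 5 of 67. In RB886 it was 15.4% and 15.2%, beside 21 and 18 of 67, and in BB3 17.1% and 9.99%, beside 27 and 4 of 66. The median log2 ratio of the members was 0.32 in BB19 and 0.31 in BB2, against −0.02 and 0.04 over all genes tested, and 0.06 in RB886 and 0.07 in BB3, against 0.02 and 0.04.

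**Figure D2:**
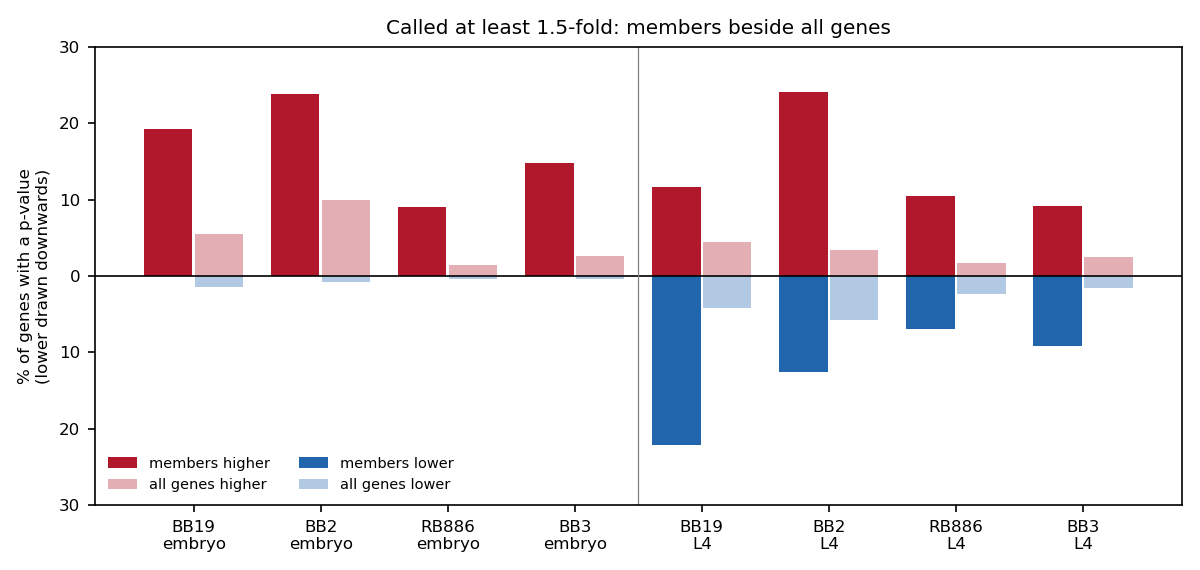
Share of genes with a deposited p-value (y axis, in percent) that were called at least 1.5-fold higher (red, upwards) or lower (blue, downwards) than N2 at an adjusted p under 0.05 and a larger mean of at least 10, for each mutant strain and stage (x axis); full bars show the 88 members and pale bars all genes. The members have bars above 0 alone in embryos and bars on both sides at L4. The pale bars of all genes also reach further up than down in embryos.

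In BB19, BB2 and RB886 embryos the largest rise among the secreted proteins was that of a groundhog gene, and in BB3 that of the ground-like grl-23. 11 of 17 grd genes were called higher and 0 lower in BB19, 12 and 0 in BB2, 7 and 1 in RB886 and 6 and 1 in BB3. grd-3 stood at 14.4 normalised counts in N2, 55.7 in BB19, 43.8 in BB2, 23.1 in RB886 and 36.9 in BB3. Its log2 fold changes in the authors' deposited tables were 1.95, 1.60, 0.68 and 1.35, with adjusted p-values from 5.46e-20 in BB19 to 0.0241 in RB886. All 4 mutant means thus lay above N2, with the smallest rise in RB886. grd-10 went from 19.1 in N2 to 52.2, 43.7, 31.4 and 49.2 (log2 fold changes of 1.45, 1.20, 0.72 and 1.37). grd-13 went from 22.6 to 56.3, 50.6, 33.3 and 39.4 (1.31, 1.16, 0.56 and 0.80). In the WBcel235 annotation grd-13, grd-3 and grd-10 are neighbours on chromosome IV with 0 coding genes between them, and no pair of members had the same means in all tables.

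grd-6 moved by nearly the same factor in each strain. It stood at 72.2 in N2 embryos and at 181 in BB19, 174 in BB2, 161 in RB886 and 170.5 in BB3, with log2 fold changes of 1.33, 1.27, 1.16 and 1.25. It was the one 1.5-fold call in RB886 embryos that passed with the added spread (adjusted p = 0.0030 by that test of the authors' means). grd-14 went from 40.2 to 92.1, 77.2, 54.9 and 72.1 (1.20, 0.94, 0.45 and 0.84). Smaller rises past 1.5-fold were those of grd-2 and grd-12 in both adr-1 strains (0.73 and 0.80; 0.73 and 0.76), grd-1 in BB19 (0.63), grd-15 in BB2 (0.79) and grd-11 in RB886 (0.59). These smaller rises did not pass with the added spread.

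Rises among the ground-like genes of embryos were led by grl-4, grl-21 and grl-23. Of 32 grl genes 11 were higher and 0 lower in BB19, 13 and 1 in BB2, 3 and 5 in RB886 and 6 and 0 in BB3. The share of grl genes higher in RB886, 9.38%, lay near the 9.27% of all genes tested. grl-4 stood at 84.6 in N2 and at 185, 170.4, 142 and 137 in BB19, BB2, RB886 and BB3 (log2 fold changes of 1.13, 1.01, 0.75 and 0.69). grl-21 stood at 21.3 in N2, at 45.1 in both BB19 and BB2, at 17.1 in RB886 and at 57.0 in BB3. It rose in BB19, BB2 and BB3 (1.09, 1.08 and 1.42), while the adr-2 strain RB886 had a value of −0.31 that did not pass (adjusted p = 0.854 in the authors' deposited table). grl-23 rose past 1.5-fold in BB3 alone, from 9.78 to 27.6 (1.4955), with 12.05 in BB19, 11.8 in BB2 and 7.46 in RB886; whether the strains differ was not tested. Further grl genes past 1.5-fold were grl-1 in BB19 and BB2 (0.61 and 0.80), grl-6 in BB2 and RB886 (0.88 and 0.86), and grl-14 and grl-18 in BB2 (0.94 and 0.96).

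For the 10 wrt genes the adr-1 strains and RB886 had opposite counts in embryos: 7 higher and 0 lower in BB19, 7 and 1 in BB2, 1 and 6 in RB886, and 2 and 0 in BB3. wrt-3 stood at 24.2 in N2, 37.6 in BB19, 50.5 in BB2, 25.9 in RB886 and 36.9 in BB3, past 1.5-fold in BB19, BB2 and BB3 (0.63, 1.06 and 0.61). wrt-8 stood at 214 in N2, 319 in BB19, 370.4 in BB2, 171.5 in RB886 and 227 in BB3. It rose in BB19 (0.57) and BB2 (0.79) and fell in RB886 (−0.33). wrt-10, with most reads of the class, had log2 fold changes of 0.01, −0.09, −0.21 and 0.01, of which those of BB2 and RB886 passed. In RB886 the next genes by reads fell as well, wrt-1 by 0.40, wrt-2 by 0.26 and wrt-6 by 0.35 on the log2 scale. qua-1 rose in BB19 (0.26) and fell in BB3 (−0.21), and hog-1 rose in BB19 (0.38) and BB2 (0.32); no other value of either passed in embryos.

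Among the receptor-like genes, ptr genes rose in embryos and the patched genes barely moved. Of 23 ptr genes 14 were higher and 0 lower in BB19, 14 and 2 in BB2, 8 and 5 in RB886 and 12 and 2 in BB3. ptr-8 stood at 9.78 in N2, 32.8 in BB19, 35.5 in BB2, 15.98 in RB886 and 28.1 in BB3. Its log2 fold changes were 1.74, 1.86, 0.71 and 1.52, and that of RB886 did not pass (adjusted p = 0.0594 in the authors' deposited table). ptr-3 went from 90.7 to 195, 169, 137 and 185 (1.10, 0.90, 0.60 and 1.03). ptr-12 rose past 1.5-fold in BB19, RB886 and BB3 (0.87, 0.82 and 0.90) and stood at 0.44 in BB2. ptr-20 did so in BB19, BB2 and BB3 (0.83, 0.67 and 0.65), ptr-17 in both adr-1 strains (0.85 and 0.94) and ptr-6 in BB2 (0.62). Thus ptr-17, from 132 in N2 to 237 in BB19 and 254 in BB2, stood at 136 in RB886 and 129 in BB3. ptc-1 had log2 fold changes of −0.03, −0.11, 0.08 and 0.12, ptc-2 of 0.02, −0.10, 0.14 and 0.16 and ptc-3 of 0.24, −0.07, −0.10 and 0.07. Of these, BB19 for ptc-1, BB19 and BB2 for ptc-2 and BB3 for ptc-3 did not pass, and the signs of ptc-1 in BB19 and ptc-3 in BB2 turn with the scaling. che-14 passed in no embryo comparison, with values between −0.01 and 0.18.

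**Figure D3:**
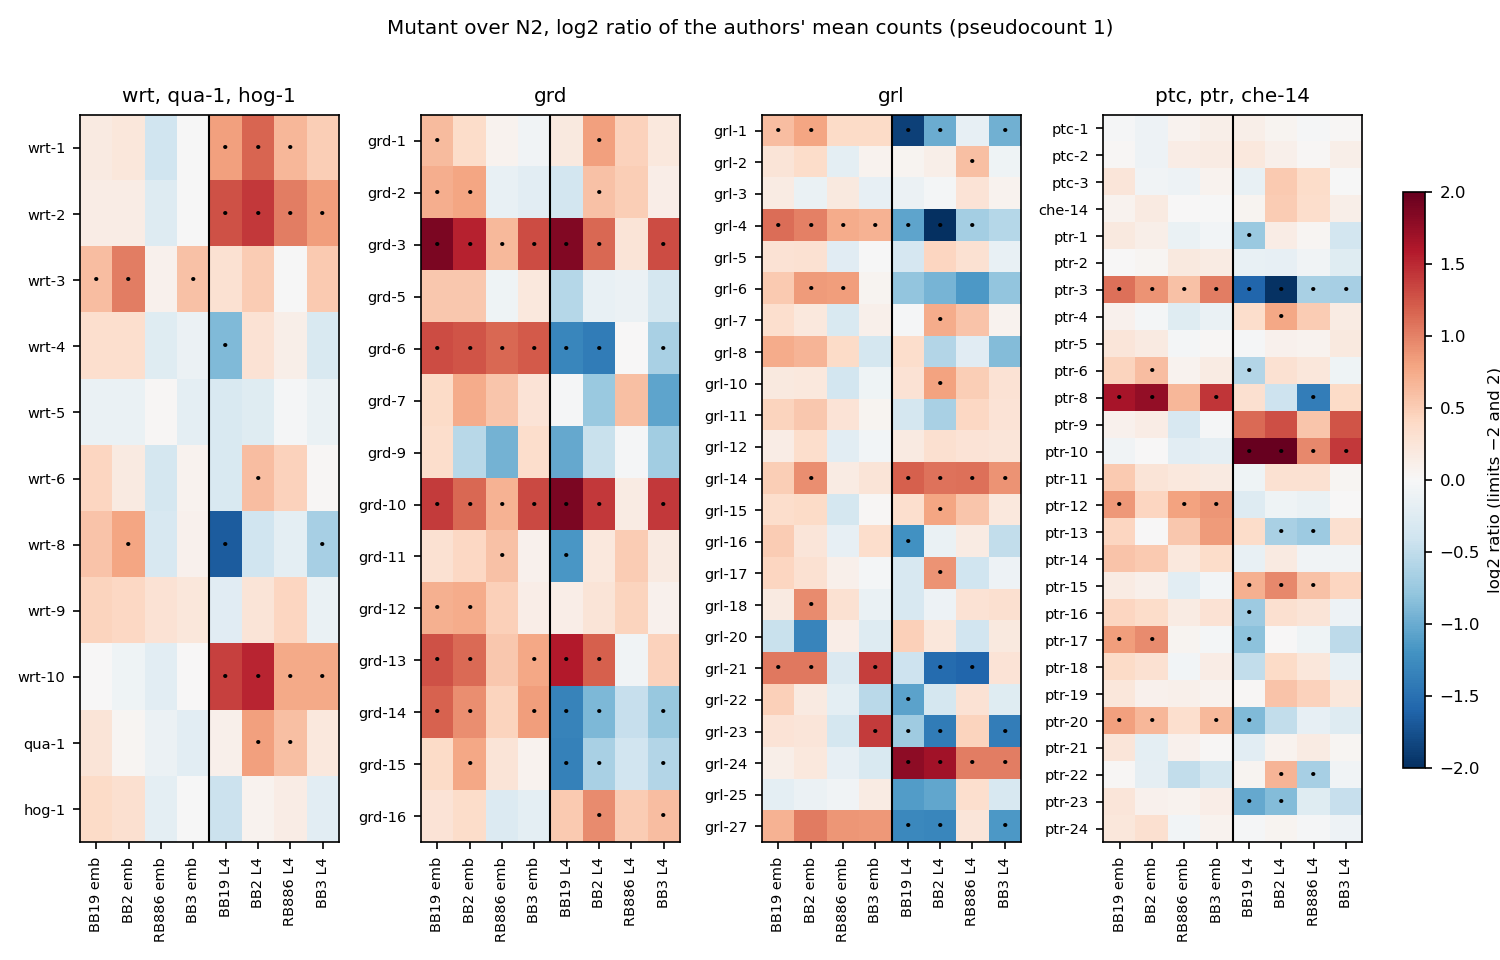
Log2 ratio of the mutant to the N2 mean count (each with a pseudocount of 1; colour, limits at −2 and 2) for the 75 members whose larger mean reached 10 in at least 1 comparison (rows, by class), in the 4 mutant strains of embryos and of L4 larvae (columns, split by the black line); dots mark calls of at least 1.5-fold. Embryo dots stand on red cells alone, and L4 dots on both red and blue cells, such as wrt-10 and ptr-10 higher and ptr-3 and grl-4 lower.

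Markers of other tissues moved in the same embryos, by the authors' deposited adjusted p with no fold limit. Among all genes with a larger mean of at least 10 that rule called 21.3% higher and 28.5% lower in BB19. In BB2 it called 29.4% and 28.0%, in RB886 15.4% and 15.2% and in BB3 17.1% and 9.99%. Some lists share genes: daf-6 is a glial gene and a patched relative, dpy-7 and mlt-8 are epidermal and moulting genes, and lrp-1 is a moulting gene and a pathway ortholog. Of 12 neuronal genes 9, 8, 5 and 7 were higher in BB19, BB2, RB886 and BB3 and 0, 1, 1 and 0 lower, with medians of 0.44, 0.33, 0.01 and 0.16; rgef-1, which codes for a Ras exchange factor of neurons, stood at 0.78 in BB19 and 0.67 in BB2. Of 6 glial genes 4, 4, 2 and 3 were higher and 0, 0, 1 and 0 lower, led by ram-5 (1.02, 1.01, 0.76 and 0.56). Of 10 body wall muscle genes 9, 8, 3 and 9 were higher and 0, 0, 4 and 0 lower, and of 10 intestinal genes 5, 5, 1 and 4 higher and 1, 2, 4 and 2 lower. At the 1.5-fold rule 2, 1, 1 and 2 of the muscle genes and 3, 4, 0 and 0 of the neuronal genes were higher, and 0 of either lower. Of 14 germline and oocyte genes 0, 0, 14 and 8 were higher and 12, 14, 0 and 2 lower, with medians of −0.37, −0.31, 0.29 and 0.10; glh-4, a germline helicase, stood at −0.94, −0.81, 0.45 and −0.21. Epidermal genes, the tissue of many members, were higher for 7, 1, 1 and 1 of 17 and lower for 4, 11, 9 and 3, with medians between −0.09 and 0.03. Of 20 moulting genes 7, 3, 1 and 1 were higher and 4, 12, 12 and 5 lower; the exception that rose in each strain was the peroxidase mlt-7 (1.03, 0.97, 0.61 and 0.72). The part of these tissues and of embryo age in the members' values was not tested.

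At L4 the members moved in both directions, as did all genes. At the 1.5-fold rule 10 were higher and 19 lower in BB19 (4.51% and 4.24% of all genes tested), and 21 and 11 in the libraries labelled BB2 (3.41% and 5.70%). RB886 had 9 higher and 6 lower (1.65% and 2.32%), and BB3 8 and 8 (2.43% and 1.52%). With the added spread 26 of 29, 25 of 32, 6 of 15 and 7 of 16 of these calls passed. By that test 2.76%, 1.97%, 0.568% and 0.911% of all genes were higher and 2.12%, 3.1%, 1.04% and 0.614% lower. A deposited p-value was given at L4 for 86 members in BB19 and RB886 and for 87 in BB2 and BB3. At an adjusted p under 0.05 alone 20 members were higher and 33 lower in BB19 (17.3% and 15%), 35 and 20 in BB2 (16.2% and 18.4%), 31 and 11 in RB886 (9.42% and 8.06%) and 24 and 19 in BB3 (8.51% and 8.40%). Counts by class at L4 below use this rule, and these shares of all genes are their background. Among genes with a larger mean of at least 10 the background was 25.4% higher and 21.9% lower in BB19, 24.2% and 26.9% in BB2, 14.2% and 12.1% in RB886 and 12.6% and 12.4% in BB3. Of the members there, 19 and 33 of 67, 34 and 19 of 66, 31 and 11 of 67 and 23 and 18 of 66 were called. The median log2 ratio of the members was −0.15, 0.10, 0.22 and 0.04, against 0.01, −0.02, 0 and 0 over all genes tested.

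Of the warthog genes with most reads in N2 embryos, wrt-10 and wrt-2 rose past 1.5-fold in every mutant strain at L4, and wrt-1 rose less in each. wrt-10 stood at 332 in N2 L4 larvae, 860.0 in BB19, 958 in BB2, 565 in RB886 and 564 in BB3, with log2 fold changes of 1.37, 1.53, 0.77 and 0.76. wrt-2 went from 327.5 to 795, 877, 663.5 and 588 (1.28, 1.42, 1.02 and 0.84). wrt-1 went from 534 to 942, 1203, 844 and 749.5 (0.82, 1.17, 0.66 and 0.49). For these 3 genes every mutant mean at L4 lay above N2, and BB2 was the highest. wrt-1 and wrt-10 are neighbours on chromosome II in WBcel235, with 0 coding genes between them. In all, 3 wrt genes were higher and 5 lower in BB19, 7 and 2 in BB2, 6 and 1 in RB886 and 5 and 2 in BB3.

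The BB19 falls were not matched in size by the other strains for wrt-8 and wrt-4. wrt-8 stood at 655 in N2, 205 in BB19, 495 in BB2, 573 in RB886 and 412 in BB3, and fell in each (−1.67, −0.40, −0.19 and −0.67). wrt-4 stood at 1418 in N2, 764 in BB19, 1740 in BB2, 1537 in RB886 and 1145 in BB3. It fell in BB19 (−0.89) and BB3 (−0.31) and rose in BB2 (0.30) and RB886 (0.11). wrt-6 was past 1.5-fold in BB2 alone (0.61, from 1422 to 2169). qua-1 rose in all 4, from 2062 to 2205, 3640, 3124 and 2378 (0.09, 0.82, 0.60 and 0.20), past 1.5-fold in BB2 and RB886. hog-1 fell in BB19 (−0.44) and passed in no other strain, with values of 0.07, 0.15 and −0.21, the first of which turns sign with the scaling.

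In the adr-1 strains some groundhog genes that rose in embryos rose again at L4 and others fell there. grd-3 stood at 85.2 in N2 L4 larvae, 309 in BB19, 190.1 in BB2, 102 in RB886 and 210.4 in BB3 (log2 fold changes of 1.86, 1.16, 0.26 and 1.31). grd-10 went from 33.3 to 126, 90.5, 37.5 and 89.8 (1.93, 1.44, 0.17 and 1.43). Neither gene passed in RB886 at L4, with adjusted p-values of 0.790 and 1 in the authors' deposited table. Their neighbour grd-13 rose in BB19 and BB2 (1.65 and 1.25, from 15.98 to 50.1 and 38.01) and did not pass in RB886 (−0.09) or BB3 (0.49). Against these, grd-14 fell from 502 to 199, 269.5, 365 and 297 (−1.33, −0.90, −0.46 and −0.75). grd-6 fell from 482 to 194.5 in BB19, 183 in BB2 and 306 in BB3 (−1.31, −1.40 and −0.65), and stood at 486 in RB886, a value that did not pass. grd-15 fell past 1.5-fold in BB19, BB2 and BB3 (−1.39, −0.67 and −0.60) and grd-11 in BB19 (−1.17). grd-1 and grd-2 rose past it in BB2 (0.82 and 0.59) and grd-16 in BB2 and BB3 (0.97 and 0.64). By count 5 grd genes were higher and 6 lower in BB19, 6 and 4 in BB2, 4 and 2 in RB886 and 6 and 4 in BB3.

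**Figure D4:**
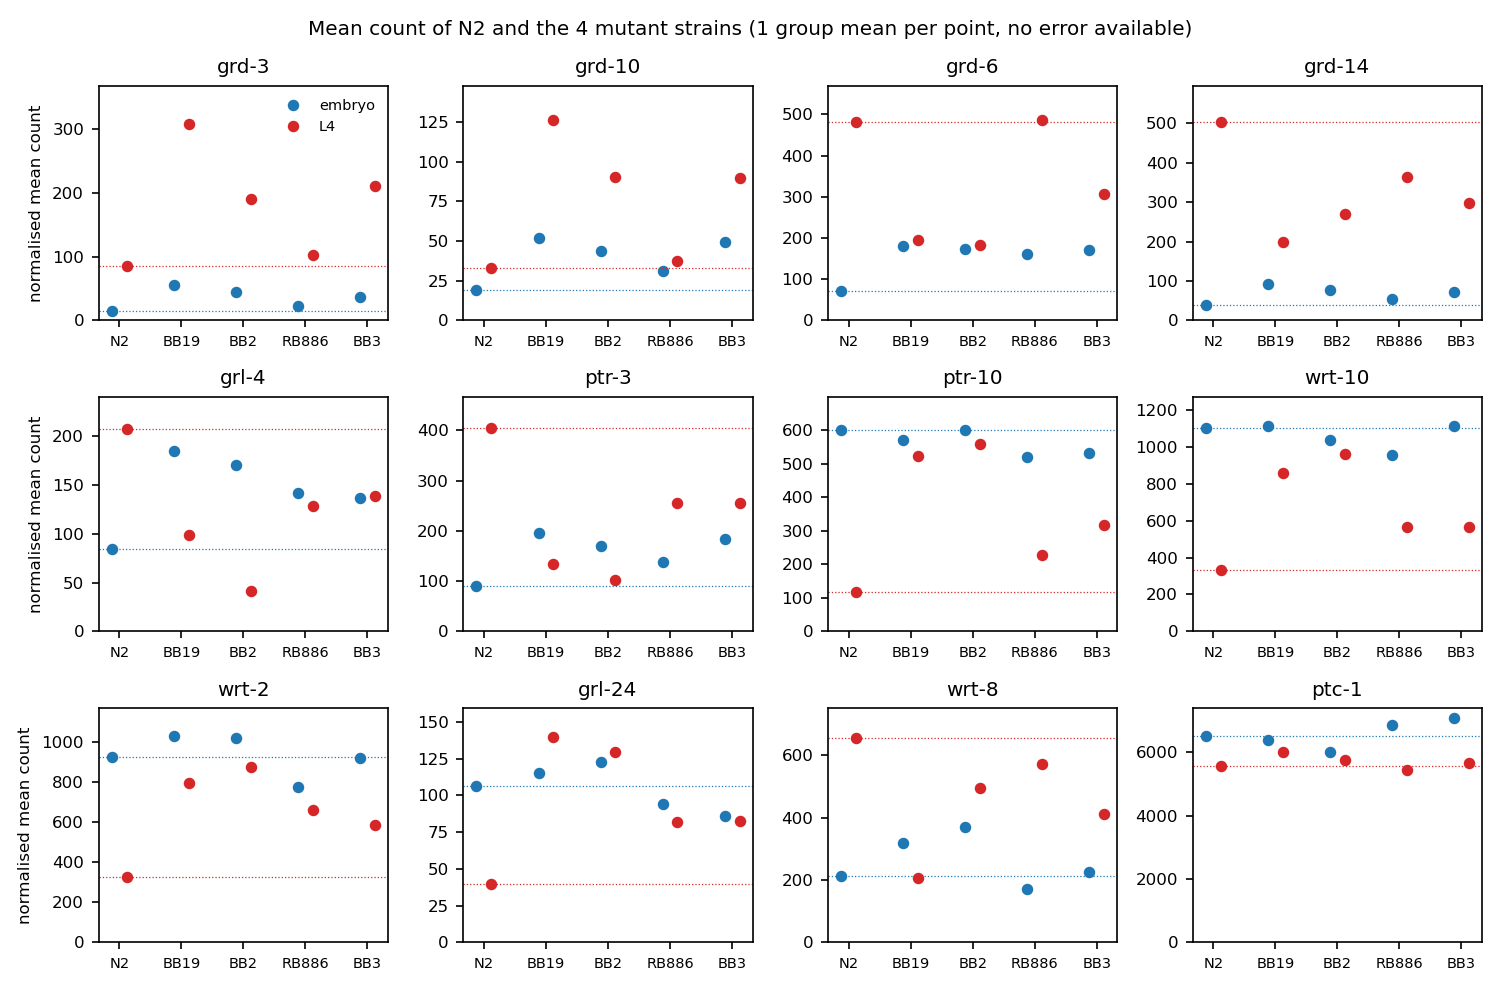
Normalised mean count (y axis, from 0) of 12 members in N2 and the 4 mutant strains (x axis), in embryos (blue) and L4 larvae (red); each point is 1 group mean with no error available, and dotted lines mark the N2 means. grd-3 and grd-10 lie above N2 at both stages, grd-14, grl-4 and ptr-3 above it in embryos and below it at L4, and wrt-10, wrt-2, grl-24 and ptr-10 well above it at L4 alone.

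The ground-like genes gave both the steepest fall and some of the steepest rises among the secreted proteins at L4. grl-24 stood at 39.9 in N2, 140 in BB19, 130 in BB2, 82.1 in RB886 and 82.5 in BB3 (1.81, 1.71, 1.04 and 1.05). grl-14 went from 51.0 to 118, 109.5, 110.1 and 96.6 (1.22, 1.11, 1.11 and 0.92). grl-4, which rose in all mutant embryos, fell from 207 to 99.2, 41.5, 129 and 139 (−1.06, −2.32, −0.69 and −0.58). grl-1 fell from 25.8 to 6.38 in BB19, 12.5 in BB2 and 12.7 in BB3 (−2.01, −1.05 and −1.02). grl-27 fell from 65.3 to 26.1, 25.7 and 28.8 in the same strains (−1.32, −1.35 and −1.18). For both, RB886 stood near N2, at 23.01 and 77.6, and did not pass. grl-23 fell past 1.5-fold in BB19, BB2 and BB3 (−0.75, −1.53 and −1.51) and grl-22 in BB19 (−1.09).

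grl-21 and grl-16 followed other orders of strains. grl-21 stood at 199.5 in N2, 149 in BB19, 67.9 in BB2, 65.8 in RB886 and 241 in BB3; it fell in the first 3 (−0.42, −1.56 and −1.60), and the BB3 value of 0.28 did not pass (adjusted p = 0.403 in the authors' deposited table). grl-16, with most reads of its class, stood at 4595 in N2, 1984 in BB19, 4199 in BB2, 5127 in RB886 and 3258 in BB3 (−1.21, −0.13, 0.16 and −0.50). Rises past 1.5-fold seen in BB2 alone were those of grl-7 (0.75), grl-10 (0.81), grl-15 (0.79) and grl-17 (1.00), and in RB886 alone that of grl-2 (0.62). By count 4 grl genes were higher and 8 lower in BB19, 7 and 8 in BB2, 9 and 2 in RB886 and 5 and 6 in BB3.

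Among the receptor-like genes at L4, ptr-10 had the largest rise of the members called at least 1.5-fold, and ptr-3 one of the largest falls. ptr-10 stood at 117 in N2, 523 in BB19, 558 in BB2, 228 in RB886 and 316 in BB3, with log2 fold changes of 2.16, 2.25, 0.96 and 1.43. Its level in N2 embryos was 602, and in mutant embryos it lay between 520.3 and 602. ptr-15 also rose in all 4 strains, from 132 to 217, 258, 198 and 179 (0.71, 0.97, 0.59 and 0.44). ptr-3 fell from 404 to 134, 102, 256 and 255 (−1.60, −1.99, −0.66 and −0.66). ptr-23 fell from 1128 to 555, 618.5, 952 and 815 (−1.03, −0.87, −0.25 and −0.47). ptr-20 fell from 478 to 259, 339, 428 and 399 (−0.88, −0.49, −0.16 and −0.26). Thus ptr-3 and ptr-20, like grd-14 and grl-4, were higher in all mutant embryos and lower in all mutant L4 larvae.

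Other ptr genes differed between strains at L4. ptr-8 stood at 319.5 in N2, 402 in BB19, 239.5 in BB2, 122 in RB886 and 417 in BB3 (0.33, −0.42, −1.39 and 0.39, all passing). ptr-13 fell past 1.5-fold in BB2 and RB886 (−0.65 and −0.74), rose in BB19 (0.38) and stood at 0.32 in BB3, which did not pass. ptr-22 rose in BB2 (0.68) and fell in RB886 (−0.67). In BB19 ptr-1, ptr-6, ptr-16 and ptr-17 fell past 1.5-fold (−0.74, −0.59, −0.73 and −0.81), and in BB2 ptr-4, needed for the apical matrix of the epidermis, rose (0.78, from 1252 to 2158). By count 5 ptr genes were higher and 12 lower in BB19, 12 and 6 in BB2, 9 and 6 in RB886 and 7 and 6 in BB3. The patched genes stayed within 1.5-fold: ptc-1 had log2 fold changes of 0.11, 0.05, −0.03 and 0.03 and ptc-2 of 0.22, 0.11, 0.03 and 0.12, of which the BB19 values passed; the signs of ptc-1 in BB2 and ptc-2 in RB886 turn with the scaling. ptc-3 rose in BB2 and RB886 (0.52 and 0.37) and fell in BB19 (−0.14), and che-14 rose in BB2 and RB886 (0.52 and 0.34).

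The alleles of adr-1 gave opposite calls for 13 members at L4, and those of adr-2 for 4; in embryos each pair of alleles did so for 2. Of the 13, 11 were lower in BB19 and higher in the libraries labelled BB2. Beside wrt-4 and ptc-3, given above, these were ptr-1 (−0.74 and 0.14), ptr-14 (−0.15 and 0.17), ptr-16 (−0.73 and 0.31), wrt-9 (−0.23 and 0.25), grd-2 (−0.37 and 0.59), grl-5 (−0.34 and 0.42), ptr-6 (−0.59 and 0.30), ptr-18 (−0.50 and 0.39) and wrt-6 (−0.30 and 0.61). ptr-13 and ptr-8 were higher in BB19 and lower in BB2. The adr-2 alleles gave opposite calls for ptr-8, grl-16, wrt-4 and ptc-3 at L4 (ptc-3 at 0.37 and −0.0091, the latter within counting error) and for grl-16 (−0.16 and 0.35) and grl-7 (−0.30 and 0.11) in embryos. In adr-1 embryos ptr-21 (0.25 and −0.20) and ptc-3 (0.24 and −0.07) did so, and the BB2 value of ptc-3 turns to 0.0191 or 0.011 under other scalings. The difference between alleles has no test here, and both alleles are compared with the same N2 libraries. Opposite calls were not counted over all genes, so whether the members' counts are unusual is not known.

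Counts of related genes are at the authors' deposited adjusted p with no fold limit. In embryos that rule called 21.3%, 29.4%, 15.4% and 17.1% of all genes with a larger mean of at least 10 higher in BB19, BB2, RB886 and BB3. It called 28.5%, 28.0%, 15.2% and 9.99% lower. At L4 the shares were 25.4%, 24.2%, 14.2% and 12.6% higher and 21.9%, 26.9%, 12.1% and 12.4% lower. Whether the counts below differ from these shares was not tested. Of the patched, Dispatched and NPC1 relatives outside the rule, 2, 2, 2 and 1 of 6 genes were higher in embryos of BB19, BB2, RB886 and BB3 and 1, 0, 0 and 0 lower. At L4, 1, 2, 1 and 0 were higher and 2, 1, 1 and 1 lower. daf-6 rose in both adr-1 strains in embryos (0.27 and 0.53) and in BB19, BB2 and RB886 at L4 (0.19, 0.63 and 0.38). Of 12 orthologs of Hedgehog pathway parts and modifiers, 3, 2, 2 and 3 were higher and 4, 8, 4 and 0 lower in embryos, and 2, 6, 7 and 3 higher and 2, 2, 0 and 4 lower at L4. tra-1, the ortholog of the transcription factor Gli that acts in sex determination, stood at −0.13, −0.29, 0.29 and 0.29 in embryos. At L4 the orthologs past 1.5-fold were hhat-2 in BB19 and BB2 (0.762 and 0.715) and hhat-1 in BB2 (0.61), all higher. lrp-1, a megalin-like receptor needed for moulting, rose less in BB2 and RB886 at L4 (0.57 and 0.33). None of these values reached a log2 fold change of 1, unlike those of the grd, grl and ptr genes above.

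Moulting genes moved at L4 beside the members. The counts that follow are at the authors' deposited adjusted p with no fold limit, and the shares of all genes at L4 given above are their background. Of 20 moulting genes 12, 16, 16 and 14 were higher and 6, 2, 1 and 2 lower in BB19, BB2, RB886 and BB3, with medians of 0.27, 0.86, 0.56 and 0.24. The matrix gene fbn-1 (1.79, 2.07, 0.93 and 1.22), the collagen dpy-10 (1.51, 1.83, 1.10 and 1.14) and the lipocalin-related lpr-3 (1.55, 1.64, 1.04 and 0.96) led, while mlt-7 fell (−0.70, −0.87, −0.50 and −0.11). Of 17 epidermal genes 7, 11, 10 and 7 were higher and 6, 2, 1 and 2 lower, led by the collagen dpy-7 (1.03, 1.4969, 0.76 and 0.72). Of 12 neuronal genes 3, 4, 3 and 3 were higher and 2, 0, 0 and 2 lower, and glial genes higher for 1, 3, 3 and 2 of 6 and lower for 1, 1, 0 and 1. Muscle genes were higher for 2, 9, 9 and 3 of 10 and lower for 4, 0, 0 and 2, and intestinal genes higher for 3, 9, 4 and 4 of 10 and lower for 3, 0, 1 and 3. At the 1.5-fold rule no neuronal, muscle or intestinal gene was called in any strain. By that rule 8, 12, 9 and 7 of the moulting genes were higher and 2, 1, 0 and 0 lower. Epidermal genes were higher for 3, 4, 1 and 1 and lower for 0 in each strain. Glial genes were higher for 0, 1, 0 and 0 and lower for 1, 1, 0 and 1. Germline and oocyte genes were higher for 1, 0, 0 and 0 and lower for 0, 6, 0 and 0. Germline and oocyte genes were higher for 10, 1, 2 and 2 of 14 and lower for 2, 11, 2 and 8, with medians of 0.10, −0.49, −0.02 and −0.07. The part of larval age and of these tissues in the members' values was not tested.

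In RNA pulled down with FLAG-tagged ADR-1 from young adults, all members listed as bound were patched-related genes. The authors' deposited table of HH76 over BB21 holds 4 of the 88 members (4.55%, with 4.08% of all genes in it) and that of HH134 holds 5 (5.68%, with 4.01%), so the members' share lay near the background. Of the 1237 and 1215 genes listed, 1120 and 1093 were found by name among all genes, so both background shares are upper values. They were ptr-13, ptr-14, ptr-19 and ptr-21 in both strains, with ptr-22 in HH134. ptr-21 had the best determined enrichment in the authors' deposited table, with a log2 fold change of 2.52 (SE 0.305) in HH76 and 2.24 (SE 0.337) in HH134. ptr-13 stood at 4.22 (SE 0.968) and 3.49 (SE 0.917), ptr-19 at 3.33 (SE 1.00) and 3.04 (SE 0.941) and ptr-22 at 4.19 (SE 1.47) in HH134, also in the authors' deposited table. The values of ptr-14, 19.9 and 18.9, carry standard errors of 182 and 184 and cannot be read as a fold. Both comparisons share the BB21 libraries. ptr-22 stood in the list of HH134, the strain without adr-2, and whether the strains differ was not tested.

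Binding was measured in young adults, and the changes of the bound ptr genes in the mutants are those of embryos and L4 larvae. Whether binding and change go together was not tested. In both adr-1 strains ptr-21 stayed within 0.25 of 0 on the log2 scale at both stages, from N2 levels of 1014 and 1020. ptr-19 rose in BB2, RB886 and BB3 at L4 (0.58, 0.47 and 0.22), and ptr-14 rose in all mutant embryos (0.57, 0.53, 0.21 and 0.36). In embryos ptr-22, at 170.5 in N2, had log2 fold changes of 0.02 in BB19, −0.18 in BB2, −0.50 in RB886 and −0.35 in BB3. ptr-13 and ptr-22 changed at L4 as given above, and ptr-13 rose in BB3 embryos from 5.11 to 10.05 (0.98, adjusted p = 0.0481 in the authors' deposited table). The limit of 10 was set on the means as deposited, where ptr-13 stood at 9.84, so it is not among the 1.5-fold calls.

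The authors' own lists of changed genes (the sources used here give no rule for them) hold members at both stages. Genes changed at least 2-fold at an adjusted p under 0.05 in both alleles include most of each list. For adr-1 they include 366 of the 374 genes up in embryos and 263 of the 265 up at L4. The lists thus largely repeat the calls above and are no separate evidence. Their list for adr-1 embryos holds 374 genes that went up, among them grd-3, grd-6, grd-10, grd-13, grl-4, grl-21 and ptr-8, so that 1.23% of all genes and 7 of the 88 members are in it. Their L4 list for adr-1 holds 265 genes that went up (0.874%) with grd-3, grd-10, grd-13, grl-14, grl-24, ptr-10, wrt-2 and wrt-10, and 187 that went down (0.617%) with grd-6, grl-1, grl-4, grl-27 and ptr-3. The adr-2 lists hold 1 member each among those that went up, grd-6 of 46 genes in embryos (0.152%) and grl-24 of 100 at L4 (0.330%). No member stood in the lists that went down for either gene in embryos (0.0231% and 0.0561%) or for adr-2 at L4 (0.145%).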

How the data were processed

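Per the labels' protocols, RNA of high molecular weight was freed of ribosomal RNA and made into stranded libraries. Bowtie, DESeq and build ce10 are named in the submitters' processing notes without version or role. The authors deposited, for each strain and stage, the mean normalised count signal per transcript line (34873 lines), their fold change ratio, their p-value and adjusted p-value. For bound RNA they deposited a log2 fold change with its standard error and statistic (score columns) and an adjusted p-value. Lists of gene names were deposited as well. The tables spell RB886 as RB668.

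A gene's line with the largest sum of means stood for it. 9 members have several lines. N2 means of a stage differ between tables by a scale alone, so they were averaged and mutant means multiplied by 0.963 to 1.074 to match. Members were called at the authors' adjusted p under 0.05 over all genes. A test of the means with counting error plus a spread of 20% between libraries, adjusted by Benjamini-Hochberg over all genes, was used as an alternative. It was run on data simulated with the same spread and with changes above 1.5-fold in genes with means of at least 100. Such data cannot show whether the spread of 20% is true or how the test does near a mean of 10. With means alone, p-values measure counting and sample spread that may be technical, and the depth per library is unknown. Libraries behind a mean were counted from the common values under 1.96 times the lowest, a limit set after the values were seen. Members and gene lists were chosen with earlier results of these data known. Values are given for members called at least 1.5-fold with a larger mean of at least 10, for ptc, qua-1, hog-1, che-14 and bound members, for the 5 leading genes per class, for the 8 widest stage ratios in each direction, and for opposite calls between alleles. Of the 9 lists (patched relatives, pathway orthologs, epidermis, moulting, neurons, glia, muscle, intestine, germline), some leading genes are named. In WBcel235, used for names and neighbours only, 85 of 88 members were found. Promoters and proteins were not analysed here. Python 3.11.15, numpy 2.4.6, pandas 2.3.3, scipy 1.17.1 and matplotlib 3.10.9 were used.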

Additional observations from a re-analysis of the deposited data

Results flagged for a closer look

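For 4 members all 4 mutant strains were called higher than N2 in embryos and lower than N2 at L4, by the authors' deposited adjusted p. The mean log2 fold change of the strains in embryos minus that at L4 was 2.14 for ptr-3, 2.05 for grl-4, 1.72 for grd-14 and 1.07 for ptr-20. The difference between the stages was not tested, the strains of a stage share the N2 libraries, and each stage was normalised in its own tables. Genes with this pattern were not counted over all genes, so whether 4 of the members is unusual is not known. No group could be searched for a library far from the others, since only group means were used.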

How the results depend on the processing

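No paired analysis was possible because the tables hold group means; leaving out a library, a replicate block and a count model were not run for the same reason. Beside a larger mean of at least 10, pseudocounts of 1 and 10, an adjusted p under 0.01 and sums over the lines of a gene, counts of members called changed by over 1.5 times in 2 cases: at an adjusted p under 0.01, the members lower in RB886 embryos fell from 18 to 11, and the members bound in HH134 from 5 to 3. Asking for at least 2-fold, the members higher were 10 in BB19, 9 in BB2, 1 in RB886 and 7 in BB3 embryos, and those lower 1 in BB2 and 0 in RB886 and BB3. At L4 they were 9, 11, 3 and 5 higher and 12, 8, 2 and 4 lower. With counting error plus a spread of 20%, 12, 13, 1 and 7 members were higher in embryos and 0 lower in BB2, RB886 and BB3, and at L4 9, 17, 4 and 5 were higher and 17, 8, 2 and 2 lower; the true spread is unknown. Centring on the median ratio moved the log2 fold change of ptc-1 in BB19 embryos to 0.049 and of ptc-3 in BB2 embryos to 0.011. Dividing each mean by its column's sum moved ptc-3 in BB2 embryos to 0.0191 and, at L4, hog-1 and ptc-1 in BB2 to −0.0303 and −0.0503 and ptc-2 in RB886 to −0.0183. The largest shift of all genes by a scaling was −0.10, from column sums in BB2 at L4. The p-values in BB3 at L4 departed from counting error for grd-11, ptc-3 and wrt-6, called at a counting p of 0.05 or more, and for grl-21, grl-5 and ptr-18, not called at a counting p under 0.001. ptr-22 in BB2 embryos was also called against counting error.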
